A study of Homo sapiens with 20 samples.

Results

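The genes described here are 9 genes of the MHC class I antigen presentation pathway: NLRC5, HLA-B, HLA-C, HLA-E, B2M, TAP1, TAP2, PSMB8 and PSMB9. They were chosen by symbol, as the rows of the deposited count tables that carry these gene names. That rule uses no measured value, but the set was proposed with earlier results of these data known. Each symbol gave 1 identifier, so the set holds 9 of the 55159 gene identifiers listed in any of the 3 tables. All 9 passed the low-count filter in all 3 tables.

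Gene counts came from 20 RNA-seq libraries of HEL cells, an erythroleukaemia line that carries the JAK2 V617F mutation, in 10 groups of 2 libraries, and every group shares that mutation. In the first table (the BCI table) the drug was 1 µM BCI, which blocks the phosphatases DUSP1 and DUSP6, set against its solvent DMSO at 4 h and at 48 h. In the second table (the BI-D1870 table) they received 10 µM BI-D1870 with 1 µM BCI, 10 µM BI-D1870 alone, an inhibitor of the RSK kinases, or DMSO, each for 24 h. In the third table (the persistent table) fedratinib-persistent cells (FedP) and ruxolitinib-persistent cells (RuxP), both made by long culture with a JAK2 inhibitor, stood beside parental cells. All groups derive from 1 cell line, and the sources used here give neither the dose, the length of culture nor the presence of inhibitor at harvest for the persistent cells. The labels give 48 h where the headings of the deposited columns read 24h, and the labels were followed. The drug treatments were done in duplicate, and whether the replicates were separate experiments is not stated, so p-values measure the spread between these libraries, which may be technical.

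MHC class I molecules display short peptides from proteins made inside the cell to CD8+ T cells and to natural killer cells. A heavy chain pairs with B2M (beta-2-microglobulin) in the endoplasmic reticulum, where it is loaded with peptides that the proteasome cuts and that the TAP transporter carries across the membrane. Interferon raises most of these genes together, through the JAK-STAT pathway, IRF1 and the class I transactivator NLRC5, and switches the catalytic subunits of the proteasome to the immunoproteasome forms.

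The genes lie on 3 chromosomes of GRCh38 in GENCODE 29. HLA-B (chr6:31269491-31357188, minus strand) and HLA-C (chr6:31268749-31272130, minus strand) lie side by side on chromosome 6, where the long gene model of HLA-B overlaps that of HLA-C on the same strand, and HLA-E (chr6:30489467-30494205, plus strand) lies further out. TAP2 (chr6:32821833-32838780, minus strand), PSMB8 (chr6:32840717-32844703, minus strand), PSMB9 (chr6:32844136-32859585, plus strand) and TAP1 (chr6:32845209-32853978, minus strand) form 1 cluster within the class II region of the same chromosome. B2M (chr15:44711487-44718877, plus strand) and NLRC5 (chr16:56989485-57083531, plus strand) are on other chromosomes.

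RefSeq promoter windows on GRCh38.p14, 250 bases before to 50 after a start, were matched by symbol for 7 of the 9 genes, with 9 windows in all, and HLA-E and NLRC5 are named only. The 5 windows printed here, 5′ to 3′ on the strand of the gene, are those of the near-identical heavy chain pair, of B2M, which moved least like the other genes, and of TAP1 and PSMB9, which face away from each other. Capitals mark exact matches on either strand to 6 motifs. The core of the interferon-stimulated response element was searched as GAAA, any 2 bases and the same 4 letters again, and the gamma-activated site as TTCNNNGAA. The CCAAT box was searched by the letters of its name, the core of the cyclic AMP element as TGACG, the GC box as GGGCGG, and the kappaB site by its usual consensus. The windows are chr6:31357130-31357429 (HLA-B, minus strand), chr6:31272043-31272342 (HLA-C, minus strand), chr15:44711267-44711566 (B2M, plus strand), chr6:32853655-32853954 (TAP1, minus strand) and chr6:32853942-32854241 (PSMB9, plus strand).
HLA-B: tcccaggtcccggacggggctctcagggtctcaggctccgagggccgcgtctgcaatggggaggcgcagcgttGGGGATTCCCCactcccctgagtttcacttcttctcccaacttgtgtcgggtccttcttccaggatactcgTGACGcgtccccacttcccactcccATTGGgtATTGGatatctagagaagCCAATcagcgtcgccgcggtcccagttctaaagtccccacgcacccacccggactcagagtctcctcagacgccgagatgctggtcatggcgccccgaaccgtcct
HLA-C: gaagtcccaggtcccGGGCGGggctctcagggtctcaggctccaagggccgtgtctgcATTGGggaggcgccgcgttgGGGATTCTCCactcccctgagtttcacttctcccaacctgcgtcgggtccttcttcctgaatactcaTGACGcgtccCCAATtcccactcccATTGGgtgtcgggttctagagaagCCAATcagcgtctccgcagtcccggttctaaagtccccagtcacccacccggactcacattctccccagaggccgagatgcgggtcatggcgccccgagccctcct
B2M: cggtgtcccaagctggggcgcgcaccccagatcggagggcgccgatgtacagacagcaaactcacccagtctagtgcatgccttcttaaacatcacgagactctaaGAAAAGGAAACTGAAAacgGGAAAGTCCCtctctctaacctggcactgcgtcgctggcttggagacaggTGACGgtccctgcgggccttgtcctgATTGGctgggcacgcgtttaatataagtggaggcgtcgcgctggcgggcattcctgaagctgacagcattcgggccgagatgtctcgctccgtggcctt
TAP1: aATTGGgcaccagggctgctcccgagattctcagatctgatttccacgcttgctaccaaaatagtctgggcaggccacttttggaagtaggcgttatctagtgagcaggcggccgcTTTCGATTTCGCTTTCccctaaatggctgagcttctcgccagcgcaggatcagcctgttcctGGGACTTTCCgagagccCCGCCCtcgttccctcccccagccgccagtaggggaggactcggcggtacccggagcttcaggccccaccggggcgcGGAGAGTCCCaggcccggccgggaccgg
PSMB9: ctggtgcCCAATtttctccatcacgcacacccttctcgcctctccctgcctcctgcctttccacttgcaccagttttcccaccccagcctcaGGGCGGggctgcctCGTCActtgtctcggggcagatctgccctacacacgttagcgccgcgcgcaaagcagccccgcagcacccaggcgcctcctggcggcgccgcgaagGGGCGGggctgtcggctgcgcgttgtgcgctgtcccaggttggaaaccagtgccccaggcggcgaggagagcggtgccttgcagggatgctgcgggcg
The HLA-B and HLA-C windows were 90.9% identical, at 269 of 296 aligned bases. Both held the kappaB site upstream of the cyclic AMP core, with 3 or more CCAAT boxes. The B2M and TAP1 windows each held a pair of overlapping matches to the interferon-stimulated element, at -144 and -138 in B2M and at -134 and -128 in TAP1, counted from the start, and each held a kappaB site. This element was also matched in a window of TAP2 (at -58) and in 1 of the 2 windows of PSMB8 (at -4), which makes 4 of the 9 windows, against 3.57% of the 35116 windows of the whole table. The kappaB site was matched in 4 of 9 windows (5.91% of all), the cyclic AMP core in 6 (24.6%), the CCAAT box in 5 (34.6%), the GC box in 7 (45%) and the gamma-activated site in 2 (7.66%). The TAP1 and PSMB9 windows printed here overlap at their upstream ends. The CCAAT match at -249 in TAP1 and that at -243 in PSMB9 are the same bases on opposite strands, counted in both windows. These are matches of letters within 1 window for each start and no measure of binding.

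The libraries held 51799814 to 84452743 counts. The biological coefficient of variation was 13.3% in the BCI table (21908 genes tested), 5.01% in the BI-D1870 table (21328) and 26.9% in the persistent table (15924). Erythroid markers, which fit the origin of the line, summed to 891 to 4300 CPM (counts scaled to library size, with TMM factors). Those of lymphoid, monocyte and dendritic cells summed to 14.7 to 117 CPM, and 1 to 6 of the 12 markers were at 0. Both 48 h groups and the parental and RuxP groups had replicates that stood apart for these genes. Replicate 1 exceeded replicate 2 for 9 of 9 genes in both 48 h groups, with a median log2 ratio of 0.34 in 48 h BCI and 0.48 in 48 h DMSO, where the median size of the ratio over all genes was 0.22 and 0.26. In parental cells replicate 1 was the higher for 7 of 9 (median 0.58, against a median size of 0.51 over all genes), and in RuxP cells for 0 of 9 (median -0.27, against 0.34). The other 6 groups had medians between -0.03 and 0.06. Bulk counts cannot tell fewer expressing cells from less RNA per cell.

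**Figure D1:**
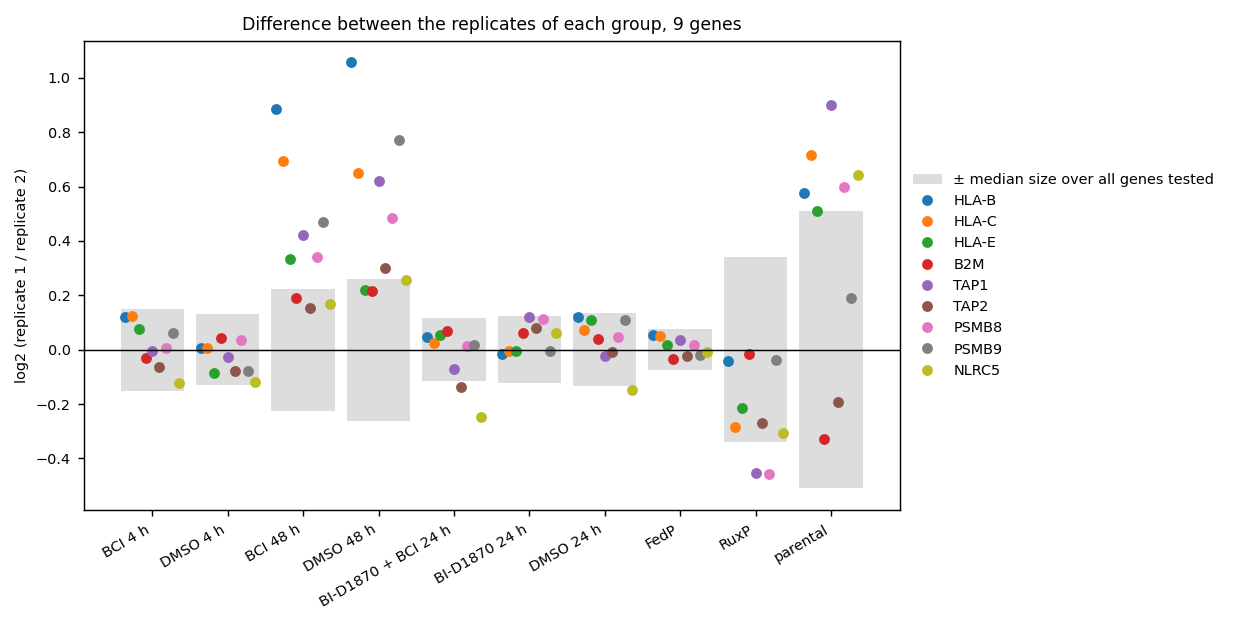
Log2 ratio of replicate 1 over replicate 2 for each of the 9 genes (coloured points) in each of the 10 groups (x axis), with a grey band at plus and minus the median size of that ratio over all genes tested. HLA-B reached 1.06 in 48 h DMSO and 0.89 in 48 h BCI, and FedP libraries stayed within 0.06 of 0.

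Per length, B2M was the most abundant of the 9 genes in each of the 10 groups. At 24 h, CPM per kilobase of the principal transcript averaged 337 ± 11.7 for B2M in cells given BI-D1870 with BCI, 419 ± 13.0 with BI-D1870 and 407 ± 7.81 with DMSO (SD, n = 2 each). HLA-C and HLA-B followed, at 184 ± 6.49 and 152 ± 8.84 CPM per kilobase in the DMSO cells of that table. HLA-E (68.0 ± 3.59), PSMB8 (67.6 ± 1.55) and PSMB9 (66.4 ± 3.59) overlapped one another there, and NLRC5 (24.3 ± 1.77), TAP1 (20.4 ± 0.24) and TAP2 (13.6 ± 0.05) came last. The transporter and the regulator thus had the lowest levels of the set, and this also held in the other 9 groups. The length taken matters most for TAP2, whose principal transcript has 2497 bases and whose longest coding transcript has 5684, and for PSMB8 (1124 and 1351 bases). With the longest coding transcripts these 3 genes again came last in all 10 groups, with TAP2 the lowest by mean in each, and PSMB8 in the 24 h DMSO cells averaged 56.3 ± 1.29 CPM per kilobase, below HLA-E.

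The order was not the same in all groups. In BI-D1870 with BCI, HLA-B (65.8 ± 1.54) and HLA-E (65.8 ± 1.77 CPM per kilobase) overlapped, where DMSO cells had HLA-B above HLA-E in both libraries. In RuxP cells PSMB9 stood second at 228 ± 4.24 CPM per kilobase, overlapping HLA-C at 211 ± 29.4. In FedP cells the order of the 9 genes was B2M (379 ± 6.17), HLA-C (349 ± 8.504), HLA-B (310 ± 8.41), PSMB9 (248 ± 2.27), HLA-E (183 ± 1.70), PSMB8 (87.3 ± 0.75), TAP1 (44.0 ± 0.77), and then NLRC5 (22.5 ± 0.10) and TAP2 (22.3 ± 0.25), which overlapped. With the longest coding transcript, TAP2 was at 9.82 ± 0.11 CPM per kilobase in FedP and no longer overlapped NLRC5. Levels are set side by side only within a table, since the tables were counted and scaled separately.

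**Figure D2:**
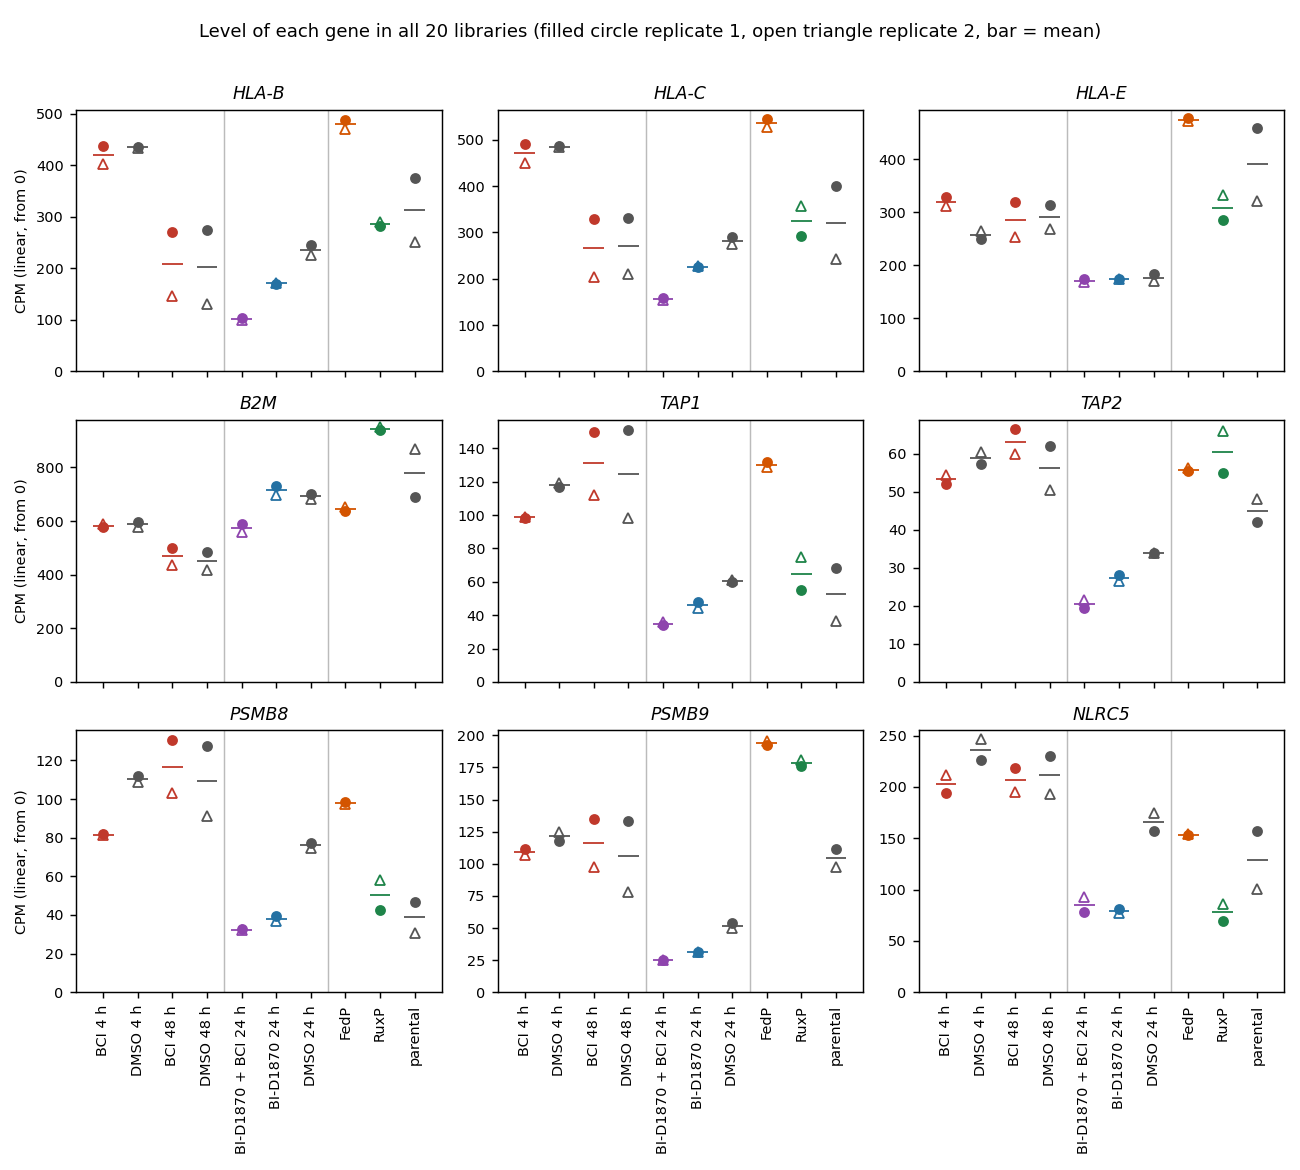
CPM (y axis, linear, from 0) of each gene in all 20 libraries, by group along the x axis, with a filled circle for replicate 1, an open triangle for replicate 2 and a bar at the mean; grey lines part the 3 tables. Replicates of the BI-D1870 table lie close together, while HLA-B and HLA-C split widely in both 48 h groups and in parental cells.

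The BI-D1870 table gave the most calls among these genes. It also had the lowest biological coefficient of variation (5.01%, against 13.3% and 26.9%), so numbers of calls do not rank the size of change between tables. The median log2 fold change of the 9 genes was 0.61 for FedP against parental cells and 0.72 for FedP against RuxP, larger in size than for BI-D1870 alone. With BI-D1870 alone, 7 of the 9 were lower than with DMSO in edgeR's quasi-likelihood test at an adjusted p under 0.05, and 0 were higher. With BI-D1870 and BCI together, 8 were lower and 0 higher. Of all genes tested, 24.3% were lower with BI-D1870 and 24.3% were lower with the pair of inhibitors. The median log2 fold change of the 9 genes was -0.39 for BI-D1870 and -0.85 for the pair, against -0.01 and -0.01 for all genes tested. The 2 comparisons share the same DMSO libraries. In the same 7 and 8 genes all treated libraries lay below all DMSO libraries, where 36.3% and 36.4% of all genes tested did.

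NLRC5, which does not bind DNA itself and acts at class I promoters through the RFX complex, had 77.9 and 92.6 CPM with BI-D1870 and BCI, 81.0 and 77.5 CPM with BI-D1870 and 157 and 174 CPM with DMSO. All 4 treated libraries lay far below both DMSO libraries, and the 2 treated groups overlapped. NLRC5 fell by 1.07 on the log2 scale with BI-D1870 (SE 0.06, adjusted p 5.69e-11), which was the largest fall of the 9 genes there, and by 0.96 with the pair (SE 0.06, adjusted p 2.12e-10).

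The classical heavy chains HLA-B and HLA-C, which present peptides to CD8+ T cells, fell in steps. HLA-B had 104 and 100.1 CPM with the pair, 170 and 172 CPM with BI-D1870 and 245 and 226 CPM with DMSO. HLA-C had 158 and 155 CPM with the pair, 226 and 227 CPM with BI-D1870 and 289 and 275 CPM with DMSO. For both genes no libraries of any 2 groups overlapped, with the pair lowest and DMSO highest. With BI-D1870, HLA-B fell by 0.46 (SE 0.04, adjusted p 4.01e-08) and HLA-C by 0.32 (SE 0.04, adjusted p 1.403e-06) on the log2 scale. With the pair, HLA-B fell by 1.21 (SE 0.05, adjusted p 5.22e-14) and HLA-C by 0.85 (SE 0.04, adjusted p 1.405e-12). Counts of HLA-B and HLA-C were also added, because reads could be split between such similar genes, and the sum gave the same calls, with log2 fold changes of -0.38 for BI-D1870 and -1.005 for the pair.

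HLA-E and B2M stood apart from that pattern. HLA-E, which presents leader peptides of other class I chains to natural killer cell receptors, had 174 and 168 CPM with the pair, 173 and 174 CPM with BI-D1870 and 183 and 170.2 CPM with DMSO. The 3 groups overlapped, and its log2 fold changes were -0.02 with BI-D1870 (SE 0.04, adjusted p 0.69) and -0.05 with the pair (SE 0.04, adjusted p 0.41). B2M, the light chain that all these heavy chains need, had 589 and 561 CPM with the pair, 730.3 and 699 CPM with BI-D1870 and 703 and 684 CPM with DMSO. BI-D1870 and DMSO libraries of B2M overlapped (log2 fold change 0.04, SE 0.04, adjusted p 0.39), while the pair was below both, and B2M fell by 0.27 on the log2 scale against DMSO (SE 0.04, adjusted p 7.65e-06).

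TAP1 and TAP2 form the transporter that moves peptides into the endoplasmic reticulum. TAP1 had 33.9 and 35.6 CPM with the pair, 47.9 and 44.0 CPM with BI-D1870 and 59.8 and 60.8 CPM with DMSO. TAP2 had 19.5 and 21.4 CPM with the pair, 28.1 and 26.6 CPM with BI-D1870 and 33.8 and 34.0 CPM with DMSO. As for the classical heavy chains, the 3 groups did not overlap for either gene. TAP1 fell by 0.39 with BI-D1870 (SE 0.06, adjusted p 8.65e-06) and by 0.79 with the pair (SE 0.06, adjusted p 6.79e-10) on the log2 scale. TAP2 fell by 0.31 with BI-D1870 (SE 0.07, adjusted p 8.33e-04) and by 0.73 with the pair (SE 0.07, adjusted p 2.93e-08).

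PSMB8 and PSMB9 are catalytic subunits of the immunoproteasome, which replace PSMB5 and PSMB6 of the standard proteasome. PSMB8 had 32.6 and 32.3 CPM with the pair, 39.6 and 36.7 CPM with BI-D1870 and 77.3 and 74.8 CPM with DMSO. PSMB9 had 25.3 and 25.0 CPM with the pair, 31.6 and 31.6 CPM with BI-D1870 and 53.9 and 49.9 CPM with DMSO. Both DMSO libraries stood well above all treated ones, and the libraries given the pair were the lowest. PSMB8 fell by 1.00 with BI-D1870 (SE 0.06, adjusted p 1.72e-11) and by 1.23 with the pair (SE 0.06, adjusted p 7.97e-13) on the log2 scale. PSMB9 fell by 0.72 with BI-D1870 (SE 0.06, adjusted p 6.39e-09) and by 1.04 with the pair (SE 0.06, adjusted p 2.82e-11). Each call for BI-D1870 and for the pair against DMSO was kept when any 1 library of the groups compared was left out.

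**Figure D3:**
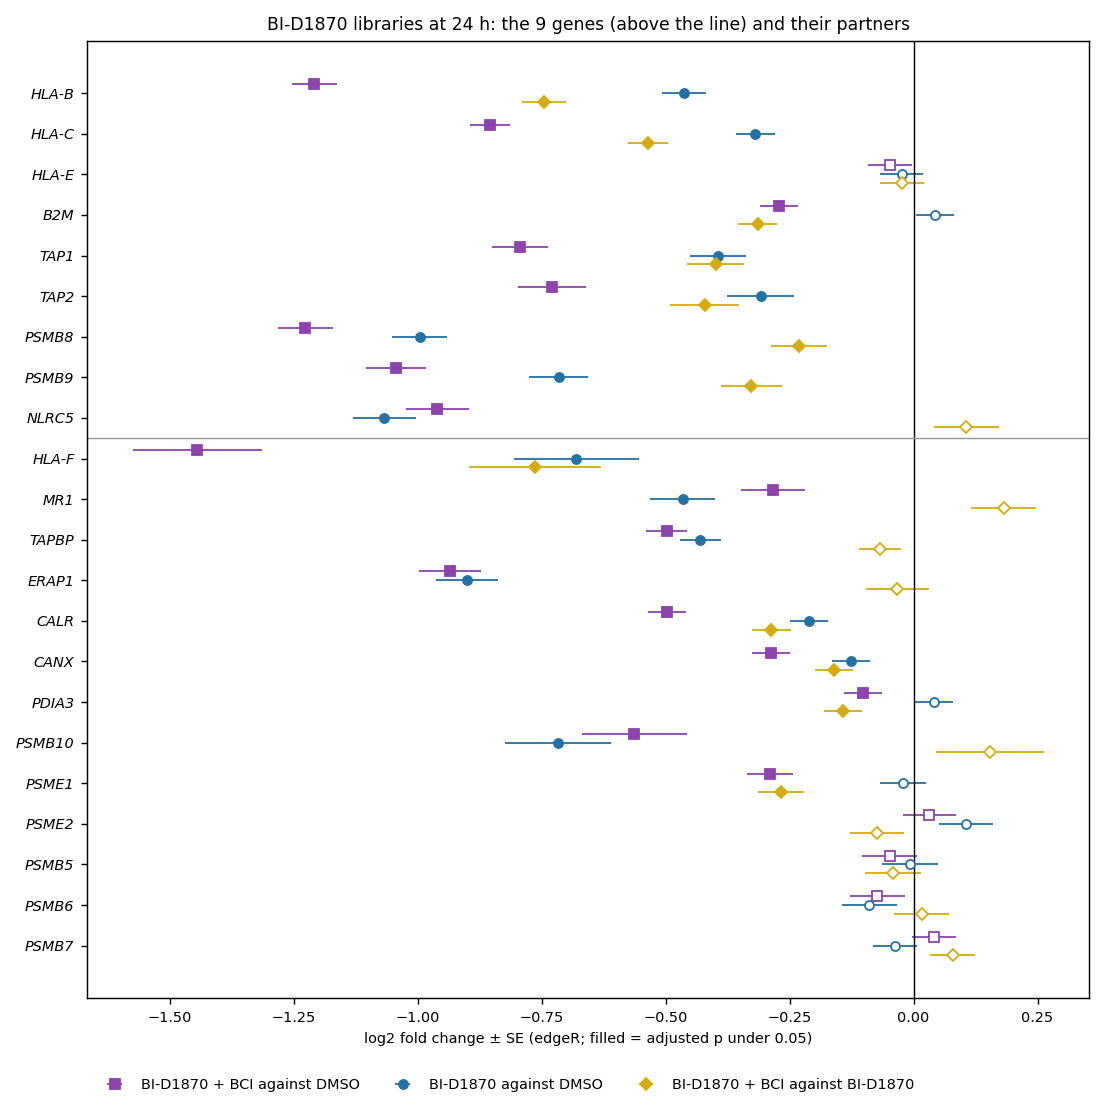
Log2 fold change (x axis) with its standard error, from edgeR, for the 9 genes and, below the line, 13 partner genes in the BI-D1870 table: squares for BI-D1870 with BCI against DMSO, circles for BI-D1870 against DMSO and diamonds for BI-D1870 with BCI against BI-D1870, filled where the adjusted p was under 0.05. HLA-E lies near 0 in all 3 comparisons, and NLRC5 is filled in both comparisons with DMSO and open for BCI on top of BI-D1870.

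BCI given on top of BI-D1870 was compared with BI-D1870 alone. Of the 9 genes 7 were lower and 0 higher, where 2.48% of all genes tested were lower and 2.22% higher. The median log2 fold change of the 9 genes was -0.33, against 0.01 for all genes tested. The largest fall was that of HLA-B, by 0.75 on the log2 scale (SE 0.04, adjusted p 3.90e-09), followed by HLA-C by 0.53 (SE 0.04, adjusted p 9.77e-08), TAP2 by 0.42 (SE 0.07, adjusted p 9.95e-04), TAP1 by 0.40 (SE 0.06, adjusted p 2.81e-04), PSMB9 by 0.33 (SE 0.06, adjusted p 0.0030), B2M by 0.31 (SE 0.04, adjusted p 5.86e-05) and PSMB8 by 0.23 (SE 0.06, adjusted p 0.022). For these 7 genes both libraries with BCI lay below both without it, and 23% of all genes tested showed that. NLRC5, which had the largest fall with BI-D1870 alone, gave a log2 fold change of 0.11 for the added BCI (SE 0.06, adjusted p 0.45), and HLA-E gave -0.02 (SE 0.04, adjusted p 0.86).

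With 1 library left out, 2 of these 7 calls were lost. PSMB8 had an adjusted p of 0.31 without replicate 1 of BI-D1870, 0.11 without replicate 1 of the pair and 0.17 without replicate 2 of the pair. PSMB9 had an adjusted p of 0.057 without replicate 2 of BI-D1870. No group of this table had BCI alone, so the effect of the pair was not compared with the sum of both inhibitors.

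Beyond the 9 genes, the other heavy chains and class I-like genes were mixed. With BI-D1870, 3 of the 11 tested rose and 5 fell. HLA-F, a little-expressed class I chain, fell by 0.68 on the log2 scale, MICB, a stress ligand of natural killer cells, by 0.59, MR1, which presents vitamin metabolites, by 0.47, and FCGRT, the neonatal Fc receptor chain, by 0.32. For BCI on top of BI-D1870, HLA-F fell by 0.76 on the log2 scale, and FCGRT rose by 0.39, with 1 of 11 higher and 2 lower.

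Of 8 genes of peptide loading and trimming, 5 fell with BI-D1870 and 0 rose (median log2 fold change -0.17). ERAP1, the peptidase that trims peptides in the endoplasmic reticulum, averaged 22.9 ± 0.26 CPM with the pair, 23.4 ± 0.63 with BI-D1870 and 43.7 ± 1.12 with DMSO (SD, n = 2 each). TAPBP, or tapasin, which bridges TAP and the heavy chain, averaged 118 ± 1.39 CPM with the pair, 124 ± 3.55 with BI-D1870 and 167 ± 2.86 with DMSO. ERAP1 fell by 0.90 and TAPBP by 0.43 with BI-D1870 on the log2 scale, and the chaperones CALR and CANX fell by 0.21 and 0.13. With the pair 6 of 8 fell and TAPBPL rose by 0.33. For BCI on top of BI-D1870 the genes that fell were 3 general chaperones, CALR by 0.29, CANX by 0.16 and PDIA3 by 0.14, while ERAP1 and TAPBP did not pass the test.

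The constitutive catalytic subunits PSMB5, PSMB6 and PSMB7 did not pass the test in any comparison of that table, with log2 fold changes of -0.01, -0.09 and -0.04 for BI-D1870. Of 4 partners of the immunoproteasome (PSMB10, PSME1, PSME2 and POMP) 1 rose and 1 fell with BI-D1870 (median log2 fold change 0.04). With the pair 1 rose and 2 fell (median -0.13). PSMB10, the third inducible subunit, fell by 0.72 with BI-D1870 and by 0.56 with the pair on the log2 scale. PSME1, a subunit of the proteasome activator PA28, fell by 0.29 with the pair and by 0.27 for BCI on top of BI-D1870. The ratio of PSMB8 to PSMB5, each as CPM per kilobase, was 0.92 and 0.89 with the pair, 1.08 and 0.99 with BI-D1870 and 2.02 and 2.08 with DMSO. The ratio of PSMB9 to PSMB6 was 0.56 and 0.55 with the pair, 0.72 and 0.69 with BI-D1870 and 1.09 and 1.09 with DMSO. Neither ratio overlapped between treated and DMSO libraries, and the transcripts of both inducible subunits went below those of their counterparts in all treated libraries except for PSMB8 in replicate 1 of BI-D1870. With the longest coding transcript of PSMB8 that library too was below 1, at 0.90, and the DMSO libraries were at 1.68 and 1.73. PSMB10 stayed at 0.14 or less of PSMB7 in all 20 libraries.

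**Figure D4:**
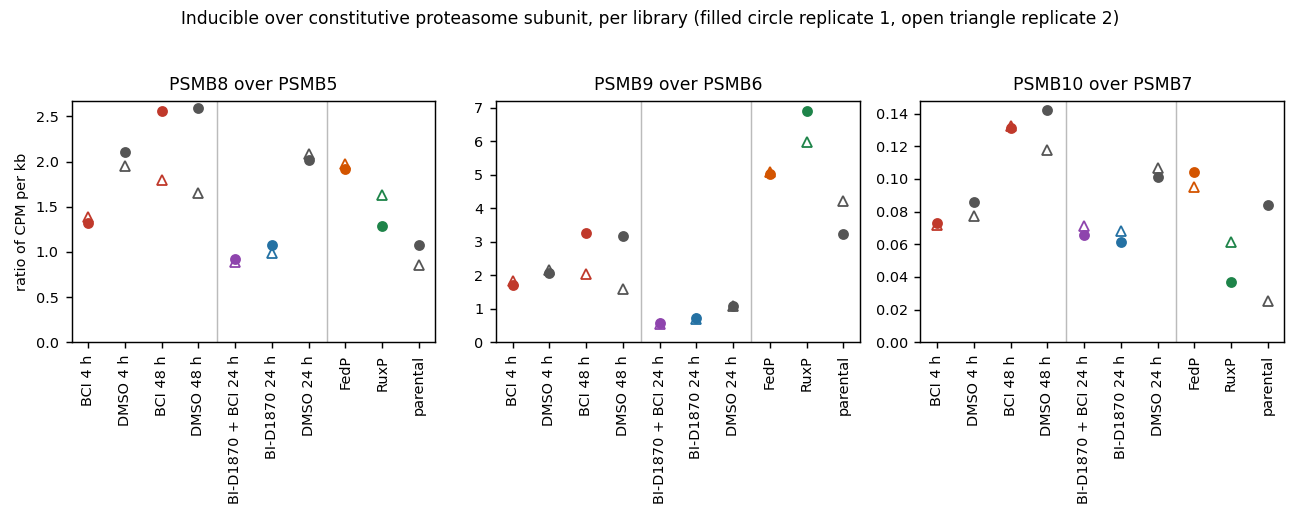
Ratio of CPM per kilobase of each inducible catalytic subunit to the constitutive one it replaces (y axis, from 0), per library, by group along the x axis; filled circles are replicate 1 and open triangles replicate 2. PSMB8 over PSMB5 is 0.89 to 1.08 in the 4 libraries given BI-D1870 and 2.02 to 2.08 in those given DMSO for 24 h.

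Interferon-stimulated genes moved in the same direction as the 9 genes in the comparisons with DMSO. Of 32 tested, 23 fell and 2 rose with BI-D1870 (median log2 fold change -0.70), and 22 fell and 3 rose with the pair (median -0.70). GBP1, a guanylate-binding protein induced by interferon gamma, averaged 0.82 ± 0.01 CPM with the pair, 1.58 ± 0.05 with BI-D1870 and 10.1 ± 0.90 with DMSO (SD, n = 2 each). IFITM1, a membrane protein that restricts virus entry, fell by 2.61 with BI-D1870 on the log2 scale, while IRF7, a transcription factor of the interferon response, rose by 1.64. For BCI on top of BI-D1870 only GBP1 (by 0.94) fell and only ISG15 (by 0.29) rose of these 32, and their median was 0.02. Genes of MHC class II fell in 7 of 8 cases with BI-D1870 (median -0.92) and in 6 of 8 with the pair, with CD74, the invariant chain, falling by 0.45 with BI-D1870.

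Genes of interferon signalling, class I promoter factors and PRC2 subunits were counted in the same way. Beside the 24.3% of all genes tested that were lower, 22.8% were higher with BI-D1870 and 22.6% with the pair, and the counts for promoter factors and PRC2 are near such shares or rest on few genes. Of 12 interferon receptor and signalling genes 6 rose and 2 fell with BI-D1870. JAK1 rose by 0.43 and STAT2 by 0.40 on the log2 scale, and the feedback inhibitor SOCS3 fell by 0.69. Of 12 factors known to act at class I promoters 3 rose and 2 fell, among them NFYA (rose by 0.35), IRF1 (rose by 0.23), RELA (rose by 0.17) and ATF1 (fell by 0.25). Of 6 subunits of the PRC2 complex, which represses class I genes in several tumours, 2 rose and 3 fell, with EED falling by 0.60 and RBBP4 by 0.48. Erythroid markers summed to 2243 and 2558 CPM with the pair, 3181 and 3267 CPM with BI-D1870 and 4078 and 4300 CPM with DMSO. Markers of lymphoid, monocyte and dendritic cells summed to 16.0 and 16.1 CPM with the pair, 14.7 and 14.9 CPM with BI-D1870 and 22.7 and 21.9 CPM with DMSO, with MS4A1, CD3D and CD1C at 0 in all 6 libraries. Megakaryocyte markers summed to 1609 and 1692 CPM with the pair, 1595 and 1595 CPM with BI-D1870 and 1899.8 and 1896 CPM with DMSO, and 7 of 8 tested fell with BI-D1870 (median log2 fold change -0.75, against -0.29 for the erythroid list). The part of these marker lists, or of the signalling, promoter factor and PRC2 lists, in the fall of the class I genes was not tested.

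BCI alone was compared with DMSO at 4 h and 48 h. At 4 h, 0 of the 9 genes passed in edgeR, where 10.7% of all genes tested did. At an unadjusted p under 0.05 there were 2 of the 9, and 5191 of the 21908 genes tested. DESeq2 called 1 of the 9 and 2916 of all genes, and limma-voom 0 and 2099. PSMB8 had 81.7 and 81.3 CPM with BCI against 112 and 109 CPM with DMSO, a log2 fold change of -0.44 (SE 0.15, adjusted p 0.11). HLA-E had 328 and 311 CPM with BCI against 250.4 and 266 CPM with DMSO, a log2 fold change of 0.31 (SE 0.12, adjusted p 0.14). NLRC5 had 194 and 212 CPM with BCI against 227 and 246 CPM with DMSO (log2 fold change -0.22, SE 0.10, adjusted p 0.24). The groups did not overlap for these 3 genes nor for PSMB9, TAP1 and TAP2, which were on the lower side with BCI, and 58.9% of all genes tested did not overlap. HLA-B, HLA-C and B2M overlapped, with log2 fold changes between -0.05 and -0.01.

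The result at 4 h depended on which libraries set the spread. With only the 4 libraries taken at 4 h in the fit, PSMB8 (adjusted p 4.9e-06), TAP1 (9.8e-04), NLRC5 (0.0053) and PSMB9 (0.045) fell and HLA-E (1.7e-04) rose, with the same fold changes. The 48 h libraries, whose replicates stood apart, then no longer added to the estimate, and 5691 genes were called in place of 2354. SOCS3 fell by 1.15 on the log2 scale at 4 h in the fit of the whole table, and of the promoter factors ATF1 fell by 0.50, NFYA by 0.45 and RELA by 0.29.

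At 48 h BCI did not separate from DMSO for any of the 9 genes. HLA-B had 270.3 and 146 CPM with BCI against 274 and 131 CPM with DMSO. PSMB9 had 135 and 97.3 CPM with BCI against 133 and 78.1 CPM with DMSO. In both genes and both groups replicate 1 was far above replicate 2, and all 9 genes overlapped between the groups, where 21.2% of all genes tested did not. In edgeR 0 of the 9 genes and 0% of all genes tested passed. At an unadjusted p under 0.05 there were 0 of the 9 and 316 of all genes, and DESeq2 and limma-voom called 0 genes. The log2 fold changes ran from -0.03 for NLRC5 to 0.17 for TAP2. Erythroid markers split in the same direction, at 3562 and 2546 CPM with BCI and 3306 and 2479 CPM with DMSO. Megakaryocyte markers split in the opposite direction, at 1934 and 2541 CPM with BCI and 2063 and 2580 CPM with DMSO. The part of either list in the split was not tested.

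The difference between the responses at 48 h and at 4 h passed for 0 of the 9 genes in edgeR, where 3.46% of all genes tested passed. At an unadjusted p under 0.05 there was 1 of the 9, PSMB8, and 3808 of the 21908 genes tested. DESeq2 and limma-voom called 0 of the 9, and 1427 and 727 of all genes. For PSMB8 the response at 48 h minus that at 4 h was 0.53 on the log2 scale (SE 0.22, adjusted p 0.24). Without replicate 1 of 48 h DMSO, PSMB8 (0.80, adjusted p 0.013), TAP1 (0.68, adjusted p 0.045) and PSMB9 (0.73, adjusted p 0.047) passed.

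The time in culture with DMSO was tested in the same table. At 48 h, 3 of the 9 genes were lower than at 4 h and 0 higher, where 13.2% of all genes tested were lower. HLA-B had 274 and 131 CPM at 48 h against 435 and 433 CPM at 4 h, and HLA-C had 331 and 211 CPM against 486 and 483 CPM. B2M had 485 and 417 CPM at 48 h against 597 and 579 CPM at 4 h. For these 3 genes both 48 h libraries lay below both 4 h libraries, and HLA-E lay on the higher side without overlap, while 63% of all genes tested did not overlap in either direction. HLA-B fell by 1.10 (SE 0.33, adjusted p 0.034), HLA-C by 0.84 (SE 0.23, adjusted p 0.025) and B2M by 0.38 (SE 0.09, adjusted p 0.015) on the log2 scale.

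These 3 calls were lost in 3 of the 4 fits that left out a library of these groups. HLA-B, HLA-C and B2M had adjusted p values of 0.13, 0.12 and 0.11 without replicate 1 of 4 h DMSO, of 0.13, 0.11 and 0.082 without replicate 2 of 4 h DMSO, and of 0.080, 0.076 and 0.058 without replicate 2 of 48 h DMSO. The log2 fold change of HLA-B was -1.10 and -1.11 without 1 or the other of the 4 h libraries, so the value held there while the smaller fit no longer passed. It was -0.66 without replicate 2 of 48 h DMSO and -1.73 without replicate 1, and DESeq2 gave it an adjusted p of 0.058. TAP1, TAP2, PSMB8, PSMB9 and NLRC5 overlapped between the times. Among the partners, 3 of 8 genes of peptide loading and trimming rose and 2 fell, with a median log2 fold change of 0.19. The genes that fell were CALR and PDIA3, the latter by 0.74 on the log2 scale. The other heavy chains and class I-like genes had 2 of 12 higher and 2 lower, and MR1 rose by 1.28. Of 32 interferon-stimulated genes 10 rose and 3 fell, where 13.5% of all genes tested were higher, with XAF1 rising by 1.78 and ISG15 by 1.02.

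The persistent cells were compared with parental cells, whose 2 libraries had the largest median size of the log2 ratio between replicates of the 10 groups (0.51), while the 95th percentile of that size was larger in RuxP cells (2.82) than in parental cells (2.03). In FedP cells 2 of the 9 genes were higher and 0 lower, where 3.84% of all genes tested were higher. In RuxP cells 1 was higher and 0 lower, where 4.28% were higher. Both comparisons share the parental libraries. The median log2 fold change of the 9 genes was 0.61 in FedP and 0.28 in RuxP, against 0.01 and -0.04 for all genes tested.

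PSMB9 had 193 and 195 CPM in FedP, 176 and 181 CPM in RuxP and 112 and 97.9 CPM in parental cells. All 4 persistent libraries lay above both parental ones, and PSMB9 rose by 0.89 in FedP (SE 0.15, adjusted p 0.024) and by 0.77 in RuxP (SE 0.15, adjusted p 0.036) on the log2 scale. PSMB8 had 98.7 and 97.5 CPM in FedP, 42.5 and 58.3 CPM in RuxP and 46.8 and 30.9 CPM in parental cells. Only the FedP libraries stood clear of parental cells for PSMB8, which rose there by 1.34 (SE 0.26, adjusted p 0.036) and gave 0.37 in RuxP (SE 0.25, adjusted p 0.41). The ratio of PSMB9 to PSMB6 per kilobase was 5.03 and 5.08 in FedP, 6.89 and 5.98 in RuxP and 3.23 and 4.23 in parental cells, and that of PSMB8 to PSMB5 was 1.92 and 1.97 in FedP, 1.29 and 1.63 in RuxP and 1.07 and 0.86 in parental cells.

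TAP1 had 132 and 129 CPM in FedP, 54.8 and 74.96 CPM in RuxP and 68.5 and 36.7 CPM in parental cells. It gave a log2 fold change of 1.31 in FedP (SE 0.32), close to that of PSMB8, but missed the threshold (adjusted p 0.068). DESeq2 (9.7e-04) and limma-voom (0.043) called it. TAP2 had 55.4 and 56.3 CPM in FedP, 54.8 and 66.1 CPM in RuxP and 42.03 and 48.0 CPM in parental cells. Both persistent groups were above parental cells without overlap, with log2 fold changes of 0.31 and 0.43 that did not pass (adjusted p 0.31 and 0.19).

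HLA-B had 488 and 469.8 CPM in FedP, 283 and 291 CPM in RuxP and 375 and 251.3 CPM in parental cells. HLA-C had 545 and 527 CPM in FedP, 292 and 356 CPM in RuxP and 399 and 243 CPM in parental cells. FedP libraries were above both parental ones for both genes, and RuxP libraries overlapped them. The log2 fold changes in FedP were 0.61 for HLA-B (SE 0.21, adjusted p 0.15) and 0.74 for HLA-C (SE 0.26, adjusted p 0.15), and those in RuxP were -0.13 and 0.01. HLA-E had 478 and 472 CPM in FedP, 286 and 332 CPM in RuxP and 459 and 322 CPM in parental cells, with log2 fold changes of 0.28 and -0.34 that did not pass.

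B2M had 639 and 653 CPM in FedP, 939 and 950.4 CPM in RuxP and 690.2 and 868 CPM in parental cells. It was the member that lay below parental cells in FedP and above them in RuxP without overlap, with log2 fold changes of -0.27 and 0.28 that did not pass (adjusted p 0.34 in both). NLRC5 had 153 and 154 CPM in FedP, 69.8 and 86.4 CPM in RuxP and 157 and 101 CPM in parental cells. RuxP libraries of NLRC5 lay below both parental ones (log2 fold change -0.72, SE 0.24, adjusted p 0.14), while FedP libraries overlapped them. In all, 7 of the 9 genes lay above parental cells in both FedP libraries and 1 lay below in both, where 63% of all genes tested did not overlap in either direction. In RuxP 3 lay above and 1 below, where 47.8% did not overlap.

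All 3 calls of the persistent cells were lost when a persistent library was left out. PSMB8 and PSMB9 in FedP had adjusted p values of 0.16 and 0.27 without replicate 1 of FedP and 0.15 and 0.28 without replicate 2, and PSMB8 had 0.058 without replicate 2 of parental cells. PSMB9 in RuxP had 0.19 without replicate 1 of RuxP and 0.12 without replicate 2. With only the groups compared in the fit, 0 of the 9 genes passed in FedP and 0 in RuxP. Without replicate 1 of parental cells the log2 fold changes in FedP included 1.83 for TAP1, 1.67 for PSMB8, 1.14 for HLA-C, 0.93 for HLA-B and -0.42 for B2M. Without replicate 2 of parental cells those in RuxP included 0.66 for PSMB9, 0.44 for B2M, -1.02 for NLRC5 and -0.58 for HLA-E. Megakaryocyte markers summed to 2535 and 2461 CPM in FedP, 1277 and 1578 CPM in RuxP and 4162 and 2785 CPM in parental cells. In each kind of persistent cells 6 of the 9 markers tested were lower, where 444 (FedP) and 345 (RuxP) of the 15924 genes tested were lower. The part of these markers in the values of the class I genes was not tested.

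FedP and RuxP cells were also set against each other. In edgeR 0 of the 9 genes passed, where 1.39% of all genes tested did. At an unadjusted p under 0.05 there were 7 of the 9, and 5103 of the 15924 genes tested. DESeq2 called 7 of the 9 and 3605 of all genes, and limma-voom 0 and 445. A fit of the FedP and RuxP libraries alone called 7 of the 9 and 5783 of all genes. The log2 fold changes of FedP over RuxP were 1.00 for TAP1, 0.97 for NLRC5, 0.96 for PSMB8, 0.74 for HLA-B, 0.72 for HLA-C, 0.62 for HLA-E, 0.12 for PSMB9, -0.12 for TAP2 and -0.55 for B2M, and the lowest adjusted p of edgeR was 0.095. FedP libraries were above both RuxP libraries for 7 genes and below for B2M, where 76% of all genes tested did not overlap. Erythroid markers summed to 1527 and 1489 CPM in FedP against 891 and 977 CPM in RuxP. Of the 10 markers 2 were called higher, where 37 of the 15924 genes tested were, and their median log2 fold change was 1.30. Their part in the difference was not tested, and in parental cells they summed to 1617 and 1286 CPM.

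Among partner lists, MHC class II genes rose in 4 of 8 cases in FedP (median log2 fold change 1.62) and 2 of 8 in RuxP (median 1.05). CD74 averaged 80.5 ± 2.97 CPM in FedP and 27.6 ± 7.82 CPM in parental cells (SD, n = 2 each) and rose by 1.55 on the log2 scale. Of 31 interferon-stimulated genes 4 rose in FedP, with IFITM1 at 2.63 and IFITM3 at 1.67, and 4 rose in RuxP, with GBP1 at 1.41 and OAS3 at 1.35. SOCS1 and SOCS3, which inhibit JAK kinases, rose by 2.58 and 2.10 in FedP. The class I-like gene MR1 rose in both, by 0.69 in FedP and 0.66 in RuxP. PSMB10 gave 1.13 in FedP (adjusted p 0.36).

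**Figure D5:**
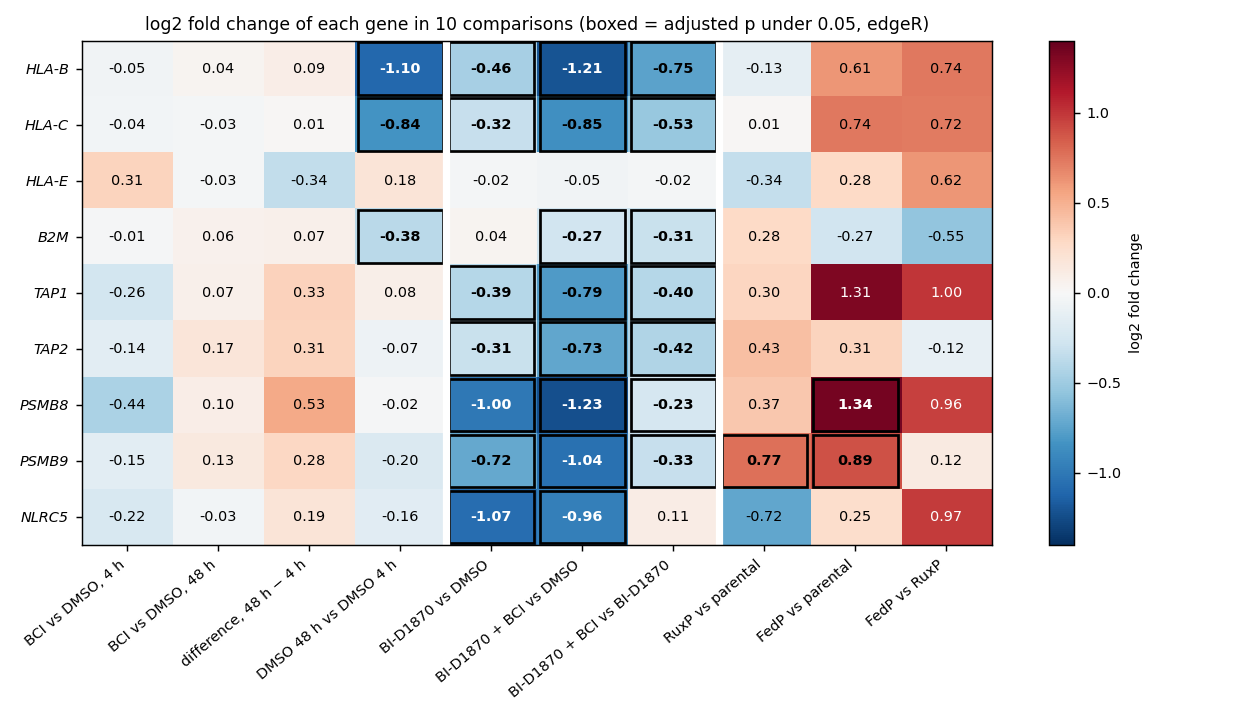
Log2 fold change of each of the 9 genes (rows) in the 10 comparisons (columns), coloured from blue (lower) to red (higher) and boxed where edgeR's adjusted p was under 0.05; white gaps part the 3 tables. The boxes lie mostly in the 3 columns of the BI-D1870 table, with falls of up to 1.23, and the 3 boxes of the persistent table are rises of PSMB8 and PSMB9.

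Across the 20 libraries, with log2 CPM centred on the mean of each table, 6 of the 9 genes followed the mean of the other 8 with a Pearson correlation between 0.66 and 0.84: PSMB9, HLA-C, PSMB8, TAP1, HLA-B and NLRC5. TAP2 had 0.62, HLA-E 0.48 and B2M 0.03. The libraries share groups and tables, so these values describe this set of samples. Of 9870 genes tested in all tables with at least 4 CPM in each, the genes outside the set most like its mean profile were HLA-F (0.95), MACROH2A1, a variant histone (0.93), GTF2IRD1 (0.92), CPOX, an enzyme of haem synthesis (0.92), and MRPS27, a protein of the mitochondrial ribosome (0.92).

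Some reads of these genes could be shared with neighbours or relatives. Of the 75-base windows of the longest coding transcript of each gene (5684 bases for TAP2), 35.5% of TAP2 recur in the overlapping gene AL669918.1, 9.05% of PSMB9 in PSMB8-AS1 and 1.96% of HLA-C in other genes, and 0% of HLA-B, B2M, NLRC5 and PSMB8 recur in another gene. The gene model of PSMB9 overlaps TAP1 and PSMB8 on the opposite strand, and that of PSMB8-AS1 overlaps PSMB8 and TAP1 in the same way. These overlaps are of whole gene models, and the overlap of their exons was not measured. No source used here states the strand setting of the counting, so reads from bases that such neighbours share cannot be assigned to either. Reads of the HLA genes come from the alleles of HEL cells and were aligned to a reference that may differ from them, and the effect of that was not tested.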

How the data were processed

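RNA of HEL cells was purified on columns, treated with DNase and sequenced on a NovaSeq instrument, per the labels' protocols. Per the submitters' processing notes, the tools were bcl2fastq, STAR 2.5.1a and edgeR, with build GRCh38. The authors deposited 3 tables, each of whole-number gene counts with no scaling. No source used here names the annotation, the counting program or its strand setting. Even numbers made up 59.8 to 73.1% of low counts, so a fragment may stand for more than 1 count.

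The 20 libraries were put in 10 groups of 2 from the labels, and 0 value columns were left without a sample. Lines that repeated a gene with the same counts were kept once. The 9 genes and the 13 lists beside them were chosen with earlier results of these data known. The text names all 9 genes in every comparison, up to 4 passing genes of a list with a mean of at least 4 CPM, those of the largest change first, and the 5 genes outside the set most like its mean profile. Some genes that this rule would name are not reported here.

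edgeR 4.0.16 in R 4.3.3 was used. Each table was filtered with filterByExpr, scaled with TMM and fitted with all its groups in 1 quasi-likelihood model, with 4, 3 and 3 residual degrees of freedom. P-values were adjusted over all genes tested (Benjamini-Hochberg) and called under 0.05. The standard error of a log2 fold change was derived from its F statistic. Levels per length use the APPRIS principal transcript of GENCODE 29 (the longest of several), whose identifiers the tables share. Promoter windows and their sequences are from RefSeq (GRCh38.p14). The code was tested on simulated data.

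The 10 comparisons were repeated with the size factors of DESeq2 in place of TMM, without the filter or with a harder one (1 CPM in every group mean), DESeq2 1.42.0, limma-voom (limma 3.58.1), a replicate block, identifiers of 1 symbol summed, only the groups compared, and each library left out. A fit of only the groups compared with a replicate block was added after seeing the data.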

Additional observations from a re-analysis of the deposited data

How the results depend on the processing

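Of 1188 values of the 9 genes under the alternatives, 1054 kept their direction and their side of the threshold, 28 lost the call, 57 gained one and 49 changed sign, of which 0 were called in either setting. Values of called genes stayed called in 282 of 286 cases in the BI-D1870 table, in 29 of 39 in the BCI table and in 25 of 39 in the persistent table. The numbers of called genes in the BI-D1870 table were 7, 8 and 7 under all alternatives, and 6 for BCI on top of BI-D1870 with a library left out. DESeq2 size factors moved the median of the 9 genes by at most 0.03 on the log2 scale.

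For BCI at 4 h (0 of 9 genes), no filter gave 2, DESeq2 1, the replicate block 1, only the groups compared 5, and these groups with the block 4. For the difference between the times (0), no filter gave 1 and leaving out a library 0 to 3. For 48 h against 4 h DMSO (3), leaving out a library gave 0 to 4. For RuxP (1), DESeq2 gave 2, the replicate block, only the groups compared and both together 0, and leaving out a library 0 to 4. For FedP (2), no filter, DESeq2, limma-voom and only the groups compared with the block each gave 3, the block and only the groups compared each gave 0, and leaving out a library 0 to 8. For FedP against RuxP (0), no filter gave 4, and DESeq2, only the groups compared and these with the block 7 each. Where a group was left with 1 library, that library was assumed to vary like the others.

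Calls over all genes moved by more than 1.5 times in these cases. BCI at 4 h called 2354 genes, 5691 with only the groups compared, 5876 with the block as well and 555 to 693 with a library left out. BCI at 48 h called 0, 27 without a filter and 18 with only the groups compared and the block. The difference called 757, 1658 without a filter, 1427 with DESeq2, 1166 with the block and 88 to 1705 with a library left out, and 48 h against 4 h DMSO called 5837 and 2498 to 6017. BCI on top of BI-D1870 called 1004, 1547 with only the groups compared and the block and 325 to 565 with a library left out. RuxP called 1026, 1836 without a filter, 2469 with DESeq2, 419 with only the groups compared, 324 with the block and 170 to 4157 with a library left out. FedP called 1055, 1818, 2560, 568, 272 and 197 to 5293 under the same settings. FedP against RuxP called 222, 2886, 3605, 5783, 0 and 0, and 445 with limma-voom. With only the groups compared and the block, FedP called 2495, FedP against RuxP 5976 and RuxP 535.

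The replicate numbers are not stated to pair libraries. Deviations from the group means correlated at 0.32 between 48 h DMSO and 48 h BCI, at -0.22 between parental and RuxP cells and at 0.12 or less elsewhere.

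Log2 fold changes that changed sign without being called were those of B2M with BCI at 4 h (0.0029 without a filter, 0.014 with the stricter one), HLA-C in the difference (-0.00099 and -0.034), PSMB8 at 48 h against 4 h DMSO (0.031, stricter filter) and HLA-E with BI-D1870 (0.0022, no filter). With a library left out, BCI at 4 h gave -0.033 to 0.0072 for B2M, -0.11 to 0.014 for HLA-B and -0.11 to 0.025 for HLA-C. BCI at 48 h gave -0.42 to 0.34 for HLA-C, -0.21 to 0.14 for HLA-E, -0.16 to 0.11 for NLRC5, -0.051 to 0.18 for B2M, -0.47 to 0.68 for HLA-B, -0.13 to 0.37 for PSMB8, -0.20 to 0.58 for PSMB9 and -0.21 to 0.43 for TAP1. The difference gave -0.38 to 0.38 for HLA-C, -0.039 to 0.19 for B2M, -0.43 to 0.72 for HLA-B and -0.051 to 0.73 for PSMB9. At 48 h against 4 h DMSO the ranges were -0.27 to 0.36 for TAP1, -0.29 to 0.21 for PSMB8, -0.64 to 0.14 for PSMB9 and -0.23 to 0.080 for TAP2. HLA-E ran from -0.078 to 0.034 with BI-D1870, from -0.10 to 0.012 with the pair and from -0.051 to 0.0025 for BCI on top, where NLRC5 ran from -0.025 to 0.22. RuxP gave -0.40 to 0.22 for HLA-B, -0.31 to 0.44 for HLA-C and -0.089 to 0.84 for TAP1. FedP gave -0.033 to 0.61 for NLRC5, and FedP against RuxP -0.24 to 0.059 for TAP2. The cause of these changes was not tested.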
